A study of Mus musculus with 6 samples.

Results

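The 34 genes described here are targets of the transcription factor ATF4, with the serine synthesis enzymes and the cytosolic aminoacyl-tRNA synthetases, in cultured CD8+ Teff cells of WT and Scd-1-/- mice. They were taken by gene name from a list of integrated stress response, serine and one-carbon, and tRNA synthetase genes, and all 34 were found among the 34745 genes of the 6 libraries. In these Teff cells the median fold change of the list by genotype was close to 0. In a fit on genotype alone, none of the 32 members that could be tested at the expression minimum was called by either of 2 rules, beside 0.738% and 0.114% of all genes tested. Chac1 and Sesn2, stress genes downstream of ATF4, were higher in all Scd-1-/- libraries and had adjusted p-values under 0.05 once the replicate number was taken into account, where 4.7% of all genes did, as had Nupr1, which is expressed at a low level (4.36% of the genes in its test). Vldlr, also at a low level, was lower. On genotype alone over all genes with a count it was called by both rules, beside 0.861% and 0.489% of those genes. Its adjusted p was above 0.05 when replicate 2 or 3 of either genotype was left out. By replicate number, 13 of the 32 members (40.6%) were called, beside 15.9% of all genes tested, all lower in replicate 1 than in replicates 2 and 3, and 12 of them were enzymes or synthetases.

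Each genotype had 3 libraries. The Scd-1-/- mice were B6.129-Scd1tm1Ntam/J, which lack Scd-1, the stearoyl-CoA desaturase that makes oleic and palmitoleic acid, in every tissue. The WT mice were bought C57BL/6J animals, so genotype, colony and any genome segment that came with the mutated allele cannot be told apart. All mice were males of 6 to 8 weeks. Splenic CD8+ T cells of both genotypes were activated for 3 days with antibodies to CD3 (5 μg/mL) and CD28 (0.5 μg/mL) in the presence of IL-2 (100 U/mL), kept for another 3 days with IL-2 but without these antibodies, and lysed for RNA at day 6. The medium of both genotypes was supplemented with nonessential amino acids, a class that includes serine, glycine, asparagine, proline and alanine. The labels do not say whether the 3 libraries of a genotype came from separate mice, or what a shared replicate number stands for, so p-values measure the spread between these libraries.

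ATF4 is made when the kinases PERK, GCN2, PKR or HRI phosphorylate the translation factor eIF2α, which lowers general translation while favouring translation of the Atf4 mRNA. ATF4 then pairs with other leucine zipper proteins, such as the C/EBP factors, and turns on genes that supply amino acids, charge tRNAs, handle oxidative stress or shut the response down. In T cells, activation raises the demand for serine and folate-bound carbon units, which feed purine and thymidylate synthesis during proliferation. ATF4 is controlled largely at the level of translation, so its mRNA level is not a measure of its activity.

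ATF4 dimers with C/EBP proteins are known to bind the C/EBP-ATF response element (CARE), whose core is TGATGNAA. RefSeq promoters of build GRCm38.p6, from 250 bases before to 50 after each start, were found for 30 of the 34 members. Both strands were searched. Of these 30 genes, 12 (40%) held the core in at least 1 promoter, beside 4.51% of the 27025 genes with a promoter. With the free base fixed to C, 9 members (30%) held it, beside 1.03% of all genes. The list was drawn up around ATF4 targets. A share above that of all genes can therefore follow from the choice of members alone, and nothing is read from it. The matches of 11 of these genes, 1 in each, are shown so that the shared core can be read. The windows run 5′ to 3′ on the strand that reads the core, which is in capitals.
Nupr1: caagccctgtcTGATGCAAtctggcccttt
Trib3: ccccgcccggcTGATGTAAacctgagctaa
Chac1: cctggcaggagTGATGCAAcggcagggaag
Vldlr: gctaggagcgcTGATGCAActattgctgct
Asns: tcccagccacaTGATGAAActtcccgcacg
Pycr1: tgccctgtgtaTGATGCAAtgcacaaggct
Got1: ggaggcttgtaTGATGCAAccaatgcaatg
Gars: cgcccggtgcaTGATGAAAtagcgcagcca
Iars: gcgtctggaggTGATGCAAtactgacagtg
Tars: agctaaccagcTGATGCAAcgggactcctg
Yars: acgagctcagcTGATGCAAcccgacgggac

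The printed windows lie at chr2:119351038-119351067 on the minus strand for Chac1, at chr7:126625562-126625591 on the plus strand for Nupr1 and at chr19:27216809-27216838 on the minus strand for Vldlr, where the match belongs to the second of 2 RefSeq starts. The window of Tars lies at chr15:11399655-11399684 on the plus strand and that of Asns at chr6:7693214-7693243 on the minus strand. The 11 matches shown reached from 200 bases before a start to 15 bases after it, and 8 of them lay on the strand opposite to the gene. By role, 5 of 7 cytosolic synthetases, 3 of 5 genes of asparagine, proline, alanine and aspartate synthesis and 4 of 11 regulators and stress genes held the core. None of the 3 serine synthesis genes and none of the 4 folate enzymes held it in this window. Outside the members it was held by 0 of 8 other cytosolic synthetases and scaffold genes, 0 of 14 mitochondrial synthetases and 0 of 17 other one-carbon and serine genes. Of the amino acid transporters 2 of 8 held it, and of the eIF2α kinases and brakes 1 of 12. The share of 5 of 7 thus applies to the listed synthetases and not to cytosolic synthetases as a class. Chac1 and Tars are shown with the whole 250 bases before their start, because Chac1 carried the largest genotype difference of the tested members and Tars the largest difference of the synthetases between the mean of replicates 2 and 3 and replicate 1. On the strand of the gene the core reads as its reverse complement, in capitals. The Chac1 sequence is chr2:119350992-119351241, plus strand, and that of Tars chr15:11399659-11399908, minus strand.
Chac1: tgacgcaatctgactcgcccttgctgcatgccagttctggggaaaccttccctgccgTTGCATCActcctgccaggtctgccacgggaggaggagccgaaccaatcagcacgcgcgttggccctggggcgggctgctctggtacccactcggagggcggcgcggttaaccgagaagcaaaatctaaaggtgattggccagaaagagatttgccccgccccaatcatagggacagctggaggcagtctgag
Tars: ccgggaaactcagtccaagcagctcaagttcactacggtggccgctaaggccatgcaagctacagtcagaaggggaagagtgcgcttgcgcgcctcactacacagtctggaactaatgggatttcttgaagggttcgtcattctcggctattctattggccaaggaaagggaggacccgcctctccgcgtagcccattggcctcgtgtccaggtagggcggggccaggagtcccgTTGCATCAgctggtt

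**Figure D1:**
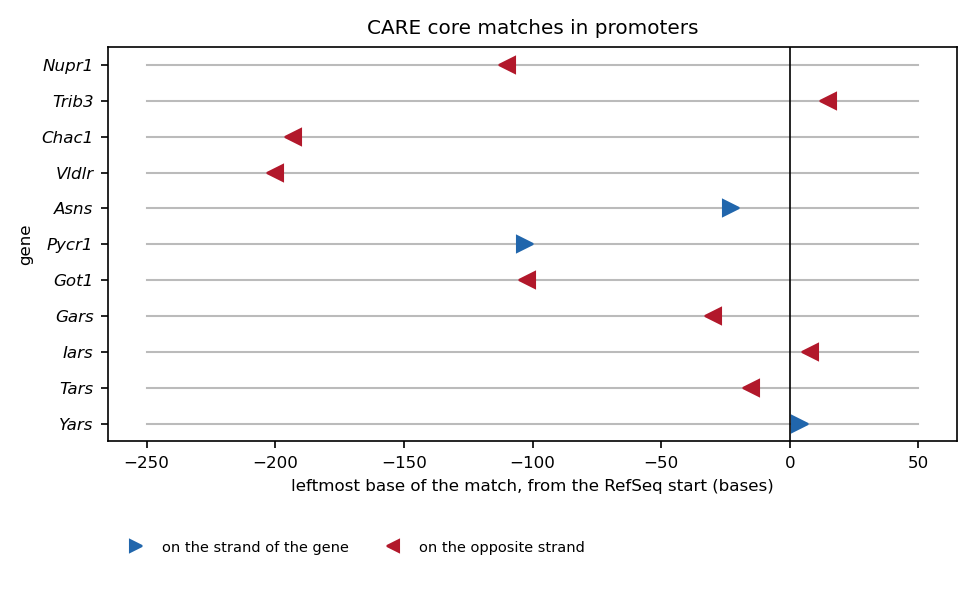
Position of each CARE core match in the promoters of the 11 genes whose match is shown. The x axis is the leftmost base of the match in bases from the RefSeq start, each grey line is the searched window from 250 bases before to 50 after it, and arrowheads give the strand. Most matches lie on the opposite strand, and those of Trib3, Iars and Yars lie just after the start.

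The libraries held 14034479 to 15866216 counts. Scd1 was at 58.2, 45.3 and 54.7 FPKM in WT and at 0.398, 0.528 and 0.261 FPKM in Scd-1-/- libraries, as the labels require. The 6 CD8 T cell markers summed to 1885 to 2379 FPKM in WT and 1837 to 2109 FPKM in Scd-1-/- libraries. Cd8a, 1 of the 6, was at 43.2, 47.6 and 47.1 FPKM in WT and at 36.6, 27.9 and 33.7 FPKM in Scd-1-/- libraries, so that the groups did not overlap, with a log2 fold change of -0.46 and an adjusted p of 0.297 by edgeR and 0.063 with the block. Of the markers of other cells, those of natural killer cells summed to 0.501 to 1.16 FPKM in WT and 1.82 to 9.39 FPKM in Scd-1-/- libraries, mostly Klrb1c, and those of B cells to 9.41 to 10.7 and 3.13 to 7.99 FPKM, with Ms4a1 and Pax5 at 0 throughout. Cd14 of the myeloid list was at 0.461, 0.227 and 0.179 FPKM in WT and at 1.14, 1.89 and 1.604 FPKM in Scd-1-/- libraries. The groups did not overlap in Cd14 and Klrb1c, which were higher in Scd-1-/- libraries, nor in Cd79b of the B cell list and Cd4, which like Cd8a were lower. The log2 fold change of Cd14 was 2.41, with an adjusted p of 0.0956 by edgeR and 0.0287 with the block, and it passed the thresholds of the study in both fits. That of Klrb1c was 3.09, with an adjusted p of 0.121 and 0.00591 with the block, where it also passed the thresholds of the study. Cd79b was at 10.7, 9.41 and 10.3 FPKM in WT and at 7.90, 3.13 and 3.68 FPKM in Scd-1-/- libraries, a log2 fold change of -1.02 with an adjusted p of 0.387 and 0.0434 with the block. Cd4 had counts of 8, 24 and 12 in WT and 5, 2 and 1 in Scd-1-/- libraries, and its adjusted p was 0.344 and 0.193 with the block. Other genes of these lists did not follow, since the groups overlapped in Cd68 and in Ncr1, which had 0 to 5 counts. The part of these markers in the genotype results was not tested. Erythroid markers stayed at or below 0.787 FPKM. In a principal component analysis of all tested genes, the first component (42.9% of the variance) set both libraries numbered 1 apart from the other 4, and the second (36.3%) set the genotypes apart. In bulk samples, fewer cells of a type and less RNA per cell cannot be told apart.

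Whether the loss of Scd-1 moved the ATF4 genes was tested with edgeR's quasi-likelihood test over the 9627 genes whose mean FPKM reached 1, a set that held 32 of the members. Nupr1 and Vldlr were below this level and were read from the same test over all 17192 genes with a count. A gene was called by the study's thresholds (unadjusted p under 0.001 and a change of 1 or more on the log2 scale, up or down), or by a Benjamini-Hochberg adjusted p under 0.05. By the first rule 0 of the 32 members were called, beside 0.738% of all genes tested, and by the second 0, beside 0.114%. At an unadjusted p under 0.05 there were 3 members (Chac1 and Sesn2 higher, Got1 lower), beside 10.1% of all genes. The fold changes of the 32 ran from -0.59 for Ddit4 to 1.54 for Chac1, with a median of 0.0053 and 16 of 32 above 0, beside a median of -0.0005 over all genes tested.

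With the replicate number as a block, Chac1 passed the thresholds of the study, beside 1.91% of all genes in either direction and 1.19% higher. Chac1 and Sesn2 had adjusted p-values under 0.05, beside 4.7% in either direction and 2.64% higher. Among 32 members these counts are near the background, and nothing particular to the list is read from them. The DESeq2 Wald test without the block called Chac1 by the thresholds (background 1.67%) and Chac1 and Sesn2 by adjusted p (2.76%). limma on log2(FPKM + 1) called Chac1 by the thresholds (0.582%) and 0 members by adjusted p (0.177%). In 3 members every Scd-1-/- value lay above every WT value (Chac1, Sesn2 and Atf4; background 7.67%), and in 2 every Scd-1-/- value lay below (Mthfd1l and Got1; background 8.32%).

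Chac1, which encodes an enzyme that degrades glutathione, lies at chr2:119351229-119354381 on the plus strand. It was at 1.73, 2.44 and 1.25 FPKM in WT replicates 1 to 3 and at 5.38, 5.37 and 4.81 FPKM in those of Scd-1-/-. The groups were far apart, although the counts behind these values were low, at 29 to 56 in WT and 124 to 137 in Scd-1-/- libraries. The log2 fold change of 1.54 (SE 0.302, 95% interval 0.84 to 2.24, n = 3 per genotype) had an adjusted p of 0.118 by edgeR, which fell to 0.0181 with the replicate block. Over the fits that left out 1 library the fold change stayed between 1.32 and 1.81. In these fits, without the block, the adjusted p of Chac1 lay between 0.0884 and 0.421. With all libraries, its unadjusted p of 0.00105 by edgeR missed the threshold of the study narrowly, and the gene was called by that rule without WT replicate 2.

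Sesn2 encodes a sestrin that senses leucine and restrains mTORC1, and lies at chr4:132492032-132510501 on the minus strand. It was at 12.7, 15.2 and 12.2 FPKM in WT and at 30.5, 21.4 and 21.2 FPKM in Scd-1-/- libraries. Scd-1-/- replicate 1 stood highest, but replicates 2 and 3 of Scd-1-/- also lay above all WT values. The log2 fold change was 0.89 (SE 0.195, 95% interval 0.43 to 1.34), with an adjusted p of 0.164 by edgeR and 0.0259 with the block. The size stayed below the fold threshold of the study. Without Scd-1-/- replicate 1 the change was 0.69. Over the fits that left out 1 library, without the block, the adjusted p of Sesn2 lay between 0.103 and 0.55.

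Nupr1 encodes a small stress-induced chromatin protein and lies at chr7:126623249-126630861 on the minus strand. Its counts were 27, 28 and 9 in WT and 71, 66 and 114 in Scd-1-/- libraries, at means of 0.288 ± 0.144 and 1.07 ± 0.291 FPKM (SD, n = 3). The groups did not overlap. The log2 fold change was 1.90 (SE 0.454) with an adjusted p of 0.135 over all genes with a count, and 0.0294 with the block, where 4.36% of genes were called. With the block it also passed the thresholds of the study (background 1.81%). Over the fits that left out 1 library, without the block, the adjusted p lay between 0.0329 and 0.473. It was under 0.05 only without Scd-1-/- replicate 1. The DESeq2 Wald test gave 0.00844 and limma on log2(FPKM + 1) 0.221.

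Vldlr encodes the receptor for very low density lipoprotein and lies at chr19:27216484-27254231 on the plus strand. Its counts were 86, 87 and 92 in WT and 22, 6 and 13 in Scd-1-/- libraries, or 0.397 to 0.453 against 0.0298 to 0.0989 FPKM. Vldlr fell by 2.75 on the log2 scale (SE 0.433, adjusted p = 0.0309 by edgeR over all genes with a count, of which 0.489% were called), and it also passed the thresholds of the study (0.861%). Its adjusted p lay between 0.00108 and 0.236 over the fits that left out 1 library, and was above 0.05 when replicate 2 or 3 of WT (0.236 and 0.0845) or of Scd-1-/- (0.21 and 0.103) was left out. With limma on log2(FPKM + 1), a scale that shrinks the change of low genes, the difference was -0.43 with an adjusted p of 0.0515. The gene lies 17.2 Mb from Scd1 on chromosome 19. Of the 147 tested genes within 20 Mb of Scd1, 19.7% had groups that did not overlap, beside 16% on the other chromosomes, 10.9% against 10.2% had an unadjusted p under 0.05, and 2.04% against 4.79% an adjusted p under 0.05 with the block.

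**Figure D2:**
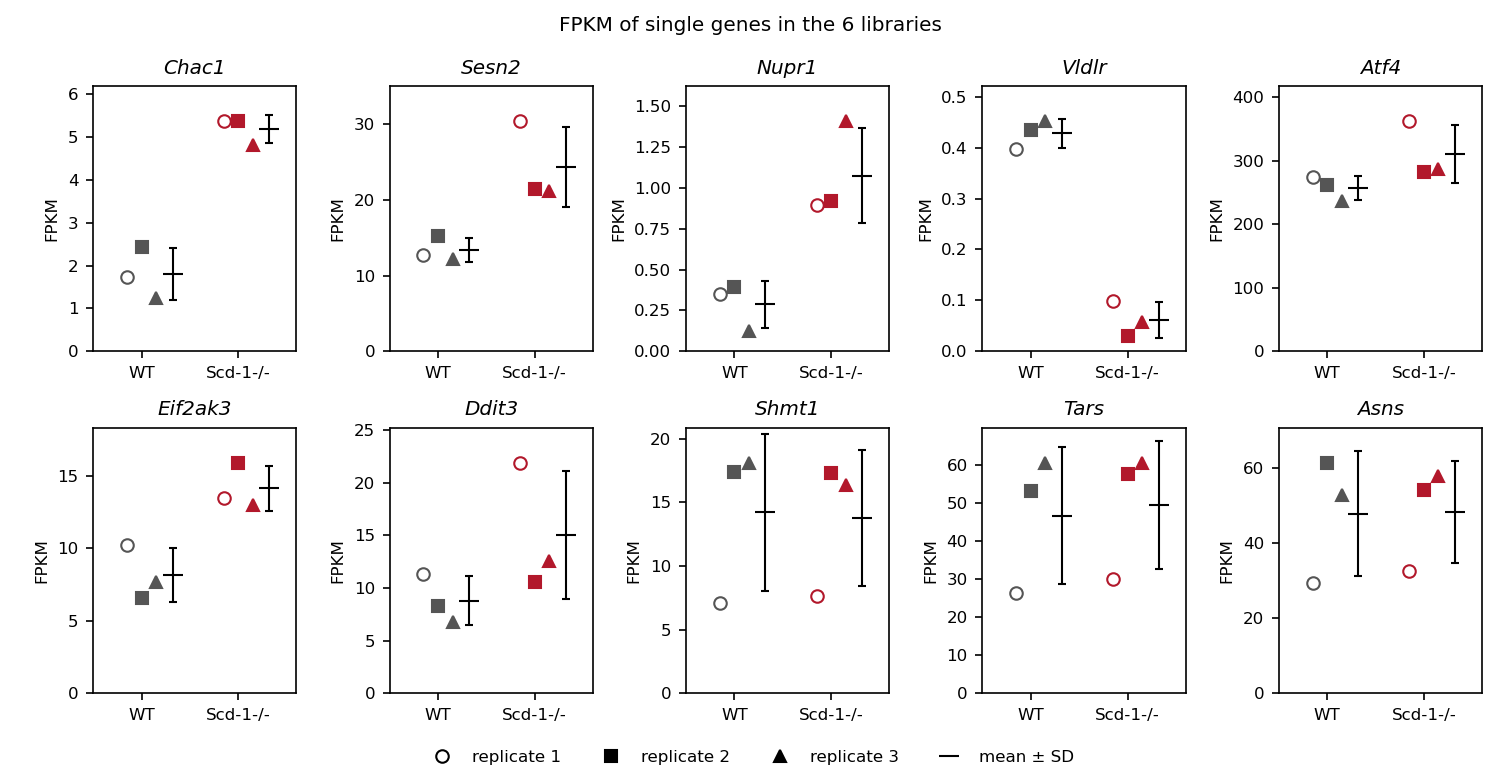
FPKM (y axis, from 0) of 10 genes in the 3 WT (grey) and 3 Scd-1-/- (red) libraries, with open circles for replicate 1, squares for replicate 2, triangles for replicate 3 and bars for the mean ± SD. Chac1, Sesn2, Nupr1, Vldlr, Atf4 and Eif2ak3 part the genotypes, whereas Shmt1, Tars and Asns part replicate 1 from replicates 2 and 3 in both.

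Atf4 itself (chr15:80255184-80257541, plus strand) was at 274, 262 and 236 FPKM in WT and at 363, 282 and 286 FPKM in Scd-1-/- libraries. The groups did not overlap, but the gap between the highest WT and the lowest Scd-1-/- value was small. The log2 fold change was 0.29 (SE 0.148, 95% interval -0.05 to 0.64) with an adjusted p of 0.565. Over the fits that left out 1 library it ran from 0.16 without Scd-1-/- replicate 1 to 0.36 without WT replicate 1. The related Atf5 had a log2 fold change of 0.23, with 3.63 to 5.25 FPKM in WT and 5.16 to 5.44 FPKM in Scd-1-/- libraries, and its exons overlap Nup62 and Il4i1 on the other strand.

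Trib3, a pseudokinase that ATF4 induces and that restrains it, was at 18.5, 21.1 and 17.8 FPKM in WT and at 32.7, 15.2 and 16.1 FPKM in Scd-1-/- libraries. Only Scd-1-/- replicate 1 stood above WT, and the other two Scd-1-/- libraries lay below all WT values. Ddit4, the mTORC1 inhibitor REDD1, was at 138, 308 and 299.6 FPKM in WT and at 174, 157 and 154 FPKM in Scd-1-/- libraries. WT replicate 1 was below all Scd-1-/- values and WT replicates 2 and 3 far above them. Its log2 fold change of -0.59 (SE 0.274) had an adjusted p of 0.532, and the gene reached an adjusted p under 0.05 without WT replicate 1. Stc2, a secreted glycoprotein of the stress response, had the same shape in WT, at 2.45, 5.70 and 5.63 FPKM, with 3.41 to 4.02 FPKM in Scd-1-/- libraries.

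Cebpb and Cebpg encode leucine zipper partners of ATF4. Exons of Cebpb overlap Tmem189 on the other strand. Cebpb averaged 14.1 ± 0.942 FPKM (SD, n = 3) in WT and was at 17.2, 10.98 and 4.15 FPKM in Scd-1-/- libraries, with Scd-1-/- replicate 3 far below the rest. Cebpg showed no such genotype pattern, with a log2 fold change of 0.10 (SE 0.506), and is taken up below with the replicate number. Eif4ebp1, which encodes the translation repressor 4E-BP1, was at 138 to 171 FPKM in WT and 132 to 178 FPKM in Scd-1-/- libraries.

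Serine is made from a glycolytic intermediate in 3 steps, by Phgdh, Psat1 and Psph. None of the 3 genes differed by genotype, with log2 fold changes of -0.04 for Phgdh (95% interval -0.69 to 0.62), -0.11 for Psat1 (-0.67 to 0.44) and 0.09 for Psph (-0.41 to 0.58). Phgdh was at 125, 264 and 222 FPKM in WT and at 142, 219 and 224 FPKM in Scd-1-/- libraries. Replicate 1 was the lowest of both genotypes, and the other libraries lay close together. Psat1 had the same order, with 41.4, 72.0 and 70.0 FPKM in WT and 42.0, 62.1 and 62.6 FPKM in Scd-1-/- libraries. Psph was at 6.52 to 10.96 FPKM in WT and 8.03 to 10.3 FPKM in Scd-1-/- libraries. Phgdh has 9 pseudogene copies of at least 95% identity over 200 bases or more, and Psph shares exons with Cct6a, so reads of these 2 genes may be split or shared.

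The folate enzymes pass the carbon unit of serine on. Shmt1 and Shmt2 take it from serine in the cytosol and the mitochondria, and Mthfd2 and Mthfd1l carry it through the mitochondria to formate. Shmt1 was at 7.11, 17.4 and 18.1 FPKM in WT and at 7.64, 17.3 and 16.4 FPKM in Scd-1-/- libraries. The 2 genotypes had nearly the same level within each replicate number, with a log2 fold change of -0.01 and a wide 95% interval of -0.96 to 0.93 without the block. Shmt2 was at 167, 417 and 367 FPKM in WT and at 199.6, 301 and 287 FPKM in Scd-1-/- libraries. Exons of Shmt1 overlap Smcr8 and those of Shmt2 overlap Ndufa4l2, both on the other strand. Mthfd2 lay between 24.3 and 35.2 FPKM in all libraries. Mthfd1l was at 52.7 to 56.0 FPKM in WT and 47.0 to 50.7 FPKM in Scd-1-/- libraries, lower in all 3 but by only 0.14 on the log2 scale (SE 0.11, adjusted p = 0.748).

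Of the genes that make other amino acids, Asns (asparagine synthetase) was at 29.4, 61.5 and 52.9 FPKM in WT and at 32.7, 54.2 and 58.0 FPKM in Scd-1-/- libraries, again with replicate 1 the lowest of both genotypes. Its log2 fold change by genotype was 0.04 (95% interval -0.66 to 0.74). Aldh18a1, the first enzyme of proline synthesis, had a mean of 44.3 ± 14.4 FPKM in WT against 39.0 ± 6.44 FPKM in Scd-1-/- libraries (SD, n = 3). Pycr1, the last, was at 2.96 to 4.12 and 3.27 to 4.04 FPKM, and the alanine transaminase Gpt2 at 1.92 to 3.78 and 2.49 to 3.64 FPKM. Got1, the cytosolic aspartate transaminase, was at 29.4, 34.3 and 25.5 FPKM in WT and at 22.4, 21.6 and 22.3 FPKM in Scd-1-/- libraries. All 3 Scd-1-/- values lay below WT, with a log2 fold change of -0.40 (SE 0.15, 95% interval -0.75 to -0.06), and the adjusted p was 0.426. Got1 lies 0.889 Mb from Scd1, and of the 76 tested genes within 5 Mb of Scd1 17.1% had groups that did not overlap, 7.89% an unadjusted p under 0.05 and 1.32% an adjusted p under 0.05 with the block.

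The cytosolic tRNA synthetases load amino acids onto tRNAs. Of the 10 in the list, 5 had a log2 fold change by genotype above 0 and 5 below, from -0.48 for Wars to 0.23 for Eprs, with a median of 0.02. Over the fits that left out 1 library, Wars ran from -0.75 to -0.25 and Eprs from 0.098 to 0.40. None of the 10 was called with or without the block. Exons of Aars overlap those of Exosc6 on the same strand, and Iars has a pseudogene copy, Gm4849, so their reads may be shared. Exons of Cars overlap Gm15580 and those of Yars overlap C77080, both on the other strand. Gars, for glycine, had the highest level per kilobase of exon of the 10, and was at 119, 169.9 and 160.1 FPKM in WT and at 136, 169 and 170.2 FPKM in Scd-1-/- libraries. Tars, for threonine, was at 26.5, 53.0 and 60.5 FPKM in WT and at 30.1, 57.6 and 60.6 FPKM in Scd-1-/- libraries, so that the genotypes matched and replicate 1 was the lowest in each. Wars, for tryptophan, was at 12.4, 27.3 and 26.7 FPKM in WT and at 10.3, 19.5 and 17.0 FPKM in Scd-1-/- libraries, with each Scd-1-/- value below the WT value of its number. Its adjusted p was 0.705 without the block and 0.0658 with it. In replicates 2 and 3 alone 12.6% of all genes tested were called by adjusted p. Of the 32 members at the FPKM minimum 4 were called there, Wars and Ddit4 as lower and Chac1 and Sesn2 as higher. Over all genes with a count, Nupr1 had a log2 fold change of 2.21 there (adjusted p = 4.71e-08, edgeR). That of Vldlr was -3.27 (adjusted p = 9.58e-14, edgeR). The share of genes with a count called in this setting was not computed.

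**Figure D3:**
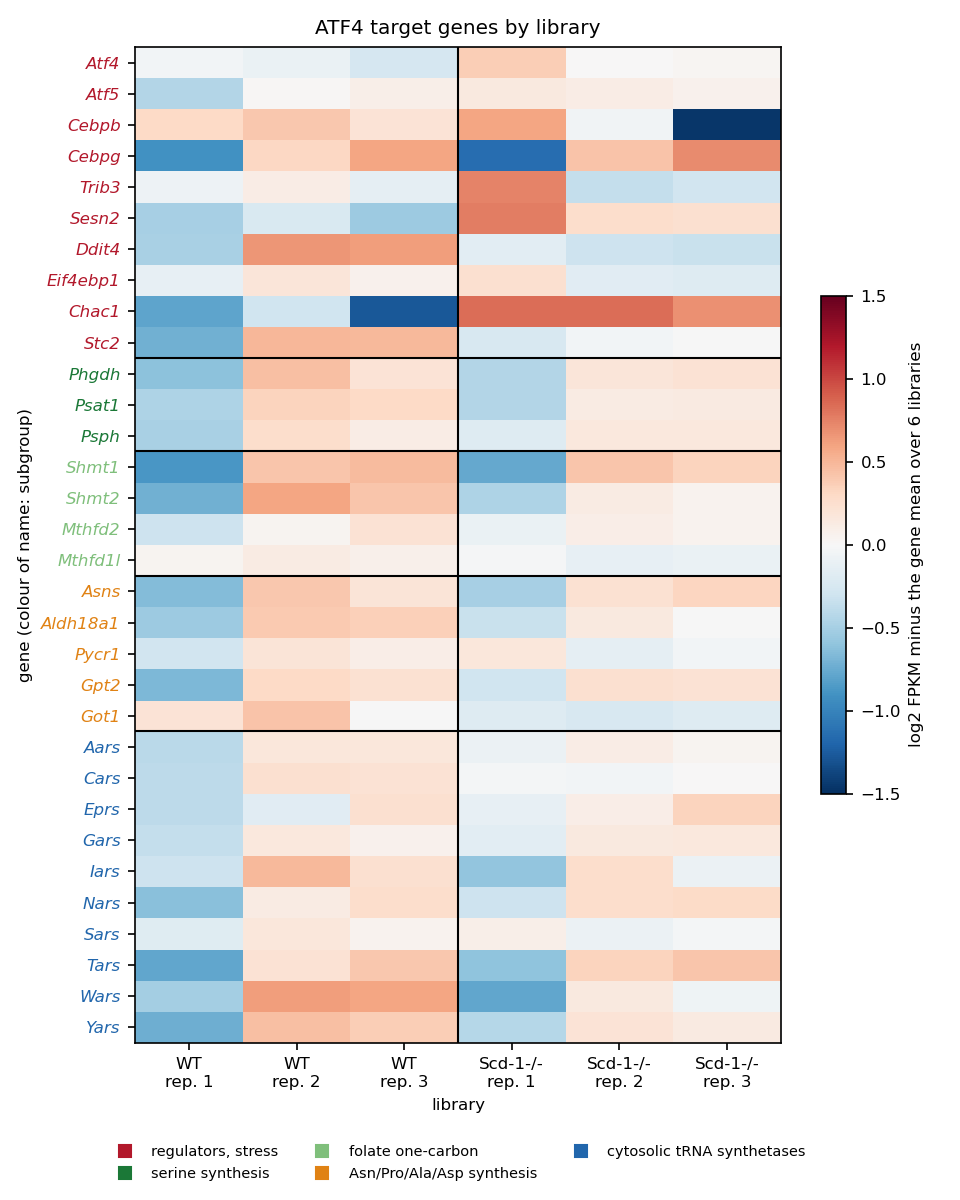
Log2 FPKM of the 32 tested members minus each gene's mean over the 6 libraries (colour scale from -1.5 to 1.5), with libraries on the x axis and genes on the y axis, coloured by role. The columns of replicate 1 are blue for most enzymes and synthetases in both genotypes, and in the top block Chac1 and Sesn2 change between the genotypes.

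The labels number the libraries 1 to 3 in each genotype, and libraries of 1 number deviated together from their genotype means, with correlations across all tested genes of 0.595, 0.306 and 0.470 and across the 32 members of 0.789, 0.530 and 0.638. Differently numbered libraries also did so where neither was number 1, at 0.380 (members 0.578) for WT replicate 3 with Scd-1-/- replicate 2 and 0.180 (members 0.369) for WT replicate 2 with Scd-1-/- replicate 3. Pairs of a library numbered 1 with one of another number gave -0.560 to -0.316, so the numbers mainly set replicate 1 apart from replicates 2 and 3. These are correlations across genes, which are not independent replicates. The replicate number was therefore tested as a factor beside genotype. By this test 13 of the 32 members (40.6%) had an adjusted p under 0.05, beside 15.9% of all genes tested. All 13 were lower in replicate 1 than in replicates 2 and 3. Of all genes tested, 7.46% were called in this direction and 8.31% with replicate 1 the highest, and 40.9% had this direction whether called or not. The count was 9 to 14 over the fits that left out 1 library, 9 without WT replicate 1, 8 of which were among the 13.

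The 13 genes were Phgdh and Psat1 of serine synthesis, Shmt1 and Shmt2 of the folate enzymes, Asns and Aldh18a1, the 6 synthetases Eprs, Iars, Nars, Tars, Wars and Yars, and, as the only one of the 10 regulators and stress genes, Cebpg. Shmt1 was 1.21 and 1.19 higher on the log2 scale in replicates 2 and 3 than in replicate 1 (adjusted p = 0.00589, edgeR). Tars was 0.94 and 1.07 higher (adjusted p = 0.0061), and Asns 0.88 and 0.81 (adjusted p = 0.0114). Cebpg showed the largest difference of the 13, at 1.68, 3.89 and 4.73 FPKM in WT and 1.42, 4.23 and 5.14 FPKM in Scd-1-/- libraries, or 1.36 and 1.64 higher on the log2 scale (adjusted p = 0.00617). Its exons overlap the gene models Gm44836 and Gm45095.

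Of the 22 members that are enzymes or synthetases, 12 (54.5%) were called by replicate number, and their median differences were 0.65 for replicate 2 and 0.55 for replicate 3 over replicate 1, beside -0.02 and -0.02 over all genes tested. The regulators and stress genes had no common order: 4 of 10 were higher in both replicates 2 and 3, and their medians were 0.05 and -0.23. Per library, the median deviation of the enzymes and synthetases from their gene means was -0.48, 0.28 and 0.22 in WT and -0.30, 0.14 and 0.10 in Scd-1-/- replicates 1 to 3. For the regulators it was -0.47, 0.15 and 0.08 in WT and 0.30, -0.02 and 0.01 in Scd-1-/-, so that replicate 1 was low in WT only. The 2 libraries numbered 1 had 15168578 and 15569716 counts, within the range of the others. The macrophage marker Cd68 was higher in them, at 16.7 (WT) and 27.2 FPKM (Scd-1-/-), against 7.79 to 9.57 FPKM in the rest, with Adgre1 at 0 throughout. Its 5-gene myeloid list summed to 17.2 to 28.3 FPKM in the libraries numbered 1. Of the rest of that list, Lyz2 and Csf1r were at 0 in both of these libraries and Cd14 did not follow the replicate number. The CD8 T cell markers summed to 2109 to 2379 FPKM in the libraries numbered 1 and to 1837 to 1921 FPKM in the rest. Klrb1c and Zbtb7b, of the natural killer and CD4 T cell lists, were also called by replicate number, at 1.75 and 1.65 higher on the log2 scale in replicates 2 and 3 for Klrb1c (adjusted p = 0.0425) and 0.70 and 0.32 higher for Zbtb7b (adjusted p = 0.0446). The part of these markers in the result was not tested.

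**Figure D4:**
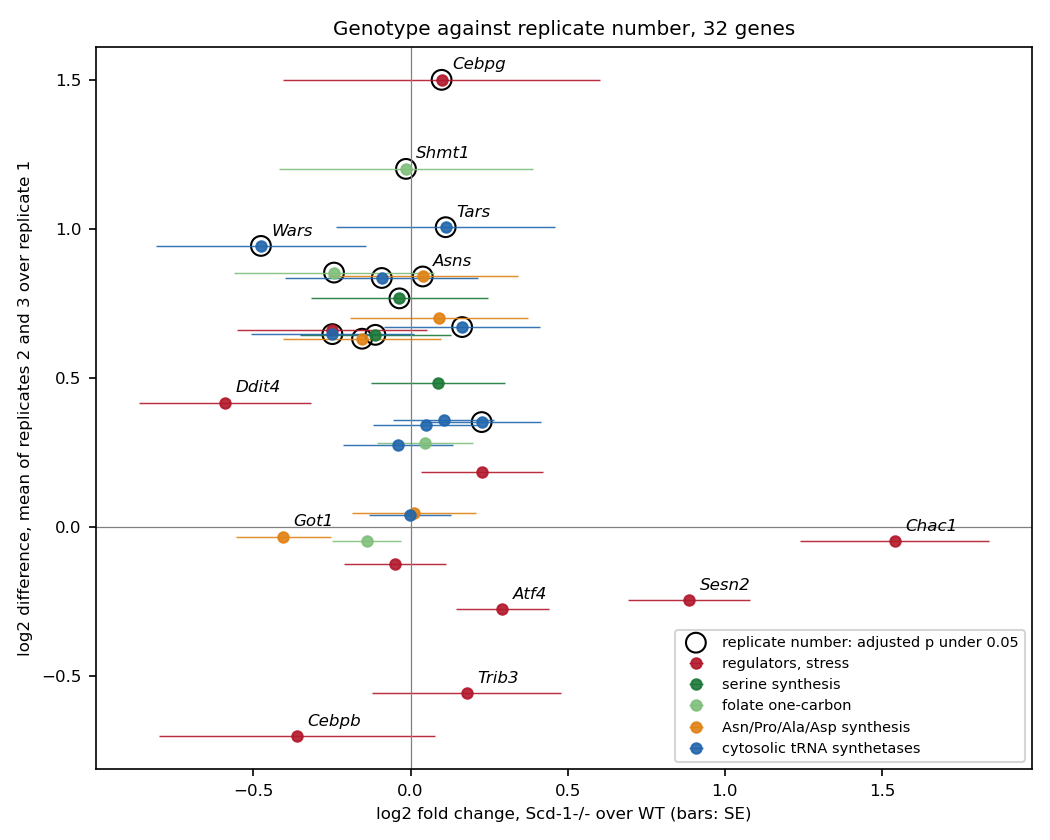
Log2 fold change by genotype (x axis, Scd-1-/- over WT, bars for the SE) against the log2 difference of replicates 2 and 3 over replicate 1 (y axis, mean of the 2) for the 32 tested members, coloured by role, with rings around the 13 called by replicate number. The ringed genes lie above 0 on the y axis and between -0.48 (Wars) and 0.23 (Eprs) on the x axis, while Chac1 and Sesn2 lie to the right and near or below 0 on the y axis.

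Other genes of the same pathways, from lists written with earlier results of these data known, showed where these patterns extended. No tested gene of the 5 lists was called by edgeR on genotype alone with all 6 libraries, beside the backgrounds of 0.738% and 0.114%. Among the eIF2α kinases and brakes of the response, Eif2ak3 (PERK, the endoplasmic reticulum kinase) was at 10.2, 6.58 and 7.70 FPKM in WT and at 13.5, 15.9 and 13.0 FPKM in Scd-1-/- libraries. The groups did not overlap, and the log2 fold change of 0.81 (SE 0.196) had an adjusted p of 0.203 without and 0.0355 with the block. Without the block the gene was also called by adjusted p with the DESeq2 Wald test (0.0137, beside 2.76% of all genes). The same held for edgeR without WT replicate 1 (0.036, log2 fold change 1.02), where 133 of 9627 genes were called. In replicates 2 and 3 alone its adjusted p was 0.00212, in a setting where 12.6% of all genes were called. Ddit3, the stress transcription factor CHOP, was at 11.3, 8.33 and 6.78 FPKM in WT and at 21.9, 10.5 and 12.6 FPKM in Scd-1-/- libraries, overlapping only through WT replicate 1 and Scd-1-/- replicate 2. Its log2 fold change of 0.79 (SE 0.326) had an adjusted p of 0.473 without and 0.0445 with the block, and exons of Mars lie opposite to it. With the block, 2 of the 16 genes of this list were called by adjusted p, beside 4.7% of all genes.

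The other eIF2α kinases did not pass either rule. The log2 fold change was 0.0018 for Eif2ak1 (HRI), -0.31 for Eif2ak2 (PKR) and -0.20 for Eif2ak4 (GCN2). Ppp1r15a, the phosphatase subunit that reverses eIF2α phosphorylation, had 0.36, the stress factor Atf3 -0.11 and Impact, a GCN2 inhibitor, 0.39. Of the amino acid transporters at the FPKM minimum, the smallest unadjusted p-values belonged to Slc3a2, the heavy chain of several exchangers, at 0.26, Slc7a1 at -0.25 and Slc7a3 at 0.46. Slc43a1, a transporter of large neutral amino acids, lay below the minimum and was chosen for mention after its values were seen. Its counts were 109, 86 and 93 in WT and 55, 54 and 38 in Scd-1-/- libraries. The groups did not overlap, and the log2 fold change of -1.01 (SE 0.303) had an adjusted p of 0.269 over all genes with a count and 0.0423 with the block, beside 4.36% of those genes. Of the other folate and serine genes at the minimum, Atic at -0.34 and Ahcy at 0.16 were among the 3 with the smallest p-values. Of the other cytosolic synthetases and their scaffold at the minimum the smallest belonged to Kars at -0.24, Vars at -0.27 and Aimp1 at 0.19. The mitochondrial synthetases at the minimum with the smallest p-values were Vars2 at -0.35, Pars2 at -0.35 and Mars2 at -0.24.

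By replicate number, 8 of 13 other one-carbon and serine genes (61.5%) and 5 of 13 other cytosolic synthetases (38.5%) were called, against 2 of 16 mitochondrial synthetases (12.5%), 2 of 9 transporters (22.2%) and 3 of 16 eIF2α kinases and brakes (18.8%), beside the background of 15.9%. Of the 8, 7 were lowest in replicate 1 on these estimates and 1, Sfxn3, a mitochondrial serine transporter, was highest there (-0.80 and -1.03, adjusted p = 0.0111). Gart and Mthfd1, chosen for mention after their values were seen like Sfxn3, are enzymes of purine synthesis and of the cytosolic folate cycle. Gart was at 23.8, 78.0 and 69.9 FPKM in WT and at 23.6, 56.9 and 53.3 FPKM in Scd-1-/- libraries. Mthfd1 was at 22.7, 55.4 and 58.5 FPKM in WT and at 26.0, 53.8 and 58.6 FPKM in Scd-1-/- libraries. Both were lowest in replicate 1 of each genotype. Ddit3 was also called by replicate number, but in the opposite direction, with replicate 1 the highest of each genotype (-0.77 and -0.80, adjusted p = 0.0407).

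**Figure D5:**
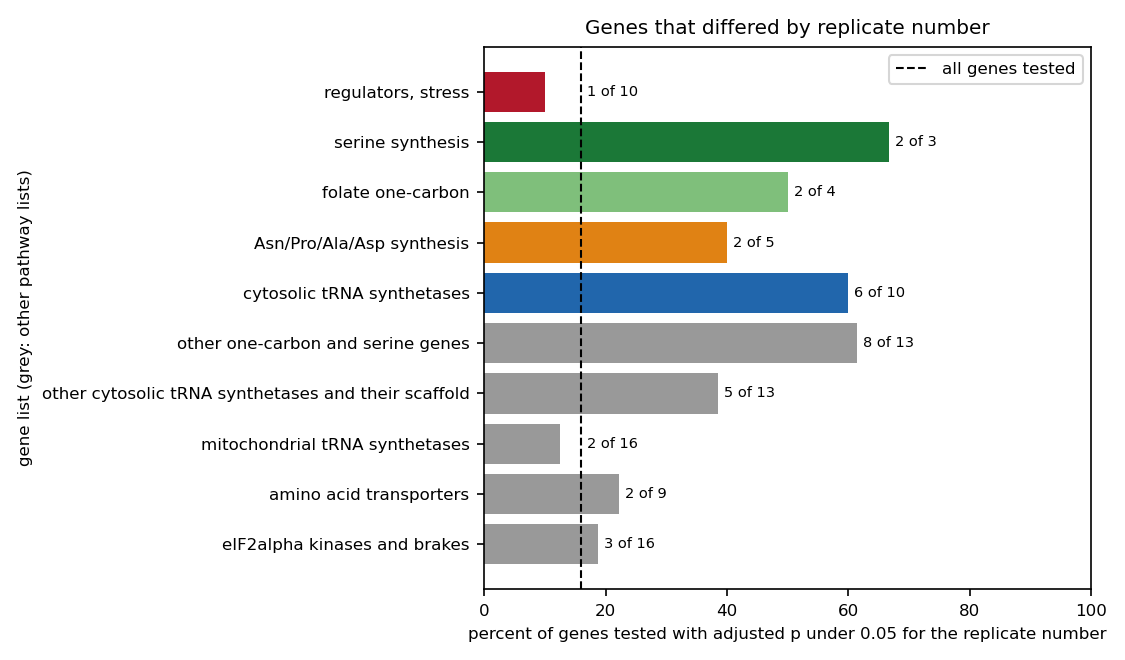
Share of tested genes of each list with an adjusted p under 0.05 for the replicate number (x axis, percent, from 0), for the 5 roles of the members (coloured) and 5 other pathway lists (grey), with counts beside the bars. The dashed line is the 15.9% of all genes tested, and only the regulators and stress genes (10%) and the mitochondrial synthetases (12.5%) lie to its left.

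The promoter core was not more frequent among the members that followed the replicate number than among the other members, being present in 4 of 11 called genes with a promoter (36.4%) and in 8 of 19 others (42.1%). Of the 3 tested members with the smallest unadjusted p for genotype, Chac1 and Got1 held it and Sesn2 did not. On the FPKM scale recomputed with the total exon length of the GENCODE M21 models, the mean level in WT was highest for Ddit4 (239), Phgdh (235) and Shmt2 (235), followed by Atf4 (188) and Gars (176), and lowest for Nupr1 (0.584), Vldlr (0.607) and Chac1 (1.805). The lengths implied by the deposited FPKM were 0.447 to 2.03 times these exon lengths for the members, so FPKM values were compared within a gene and not between genes.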

How the data were processed

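The 6 libraries (CD8+ Teff cells, 3 per genotype) were grouped by the genotype in the labels. Per the labels and the methods of the study, reads were mapped with HISAT2 to GRCm38 and quantified with StringTie 1.3.0. The labels name poly-A RNA and a universal library kit, and the methods a stranded total RNA kit, so the strand setting is not known. The authors deposited raw counts per gene and FPKM values per gene and library, and no TMM factor was found in the deposited FPKM. From the counts, edgeR 4.0.16 (TMM, glmQLFit and glmQLFTest, R 4.3.3) was fitted on genotype over genes whose mean FPKM reached 1, with Benjamini-Hochberg adjustment, after testing on simulated data. Standard errors are the log2 fold change over the root of F. The replicate number was tested with 2 terms beside genotype. Same-numbered libraries deviated together (0.595, 0.306 and 0.470), although replicates 2 and 3 also did so across numbers (0.380 and 0.180), so the fit with the number as a block is given where it changes a call. Alternatives were DESeq2 1.42.0, limma 3.58.1 on log2(FPKM + 1) or log2(FPKM + 0.1), other scaling and FPKM minimums, and fits without each library. A count of 0 allows up to 3 counts, and 3 libraries against 3 limit the precision. Members and lists were chosen with earlier results of these data known. Named were all members, Scd1, the eIF2α kinases, Ppp1r15a, Ddit3 and Atf3, list genes called by genotype with or without the block, and otherwise the 3 genes of a list with the smallest p. Beyond the members this rule was applied to genes at the FPKM minimum. Exons, overlaps and copies (blastn of BLAST+ 2.17.0) came from GENCODE M21, promoters from RefSeq. Itgam was not used, because its name did not give a single row. A gene, a marker and a promoter match are not reported here.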

Additional observations from a re-analysis of the deposited data

How the results depend on the processing

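The count of members past the thresholds of the study rose from 0 to 1 with the replicate block, the DESeq2 Wald test and limma on log2(FPKM + 1) or log2(FPKM + 0.1) (Chac1 in each), and to 2 with no FPKM minimum (Chac1 and Vldlr). The count by adjusted p rose from 0 to 2 with the block and with DESeq2, to 1 with no minimum and to 4 in replicates 2 and 3 alone. Except with no minimum, the counts given here leave out Nupr1 and Vldlr, which lay below it. Read over all genes with a count, both also had an adjusted p under 0.05 with DESeq2 and in replicates 2 and 3 alone. Leaving out 1 library gave 0 to 1 by either rule, with Chac1 past the thresholds without WT replicate 2 and Ddit4 by adjusted p without WT replicate 1. With the block Nupr1 (by both rules) and, by adjusted p, Eif2ak3, Ddit3 and, below the FPKM minimum, Slc43a1 were also called, as were the markers Klrb1c (by both rules), Cd79b and Cd14, and among the members no other call changed. Over all genes tested, 71 passed the thresholds and 11 the adjusted p, against 184 and 452 with the block, 161 and 266 with DESeq2 and 369 and 1213 in replicates 2 and 3 alone. The median fold change of the members ran from -0.156 to 0.128. The members' median log2 deviation per library had a pooled SD within genotype of 0.289. That SD describes single libraries and is not the error of a difference between genotypes. The count by replicate number stayed between 9 and 14.

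Genes with small fold changes turned sign. With the block these were Shmt1 (0.0057) and Sars (0.0023), and in replicates 2 and 3 alone Trib3 (-0.28), Mthfd2 (-0.0183), Pycr1 (-0.20) and Aars (-0.056). Pycr1 was -0.0011 with no minimum, -0.0062 with limma at a pseudocount of 1 and -0.0060 at 0.1. Eif2ak1 was -0.0023 with median-ratio size factors and with DESeq2, -0.0072 with no minimum, -0.0048 at a mean FPKM of at least 5, and -0.0197 and -0.0210 with limma. Over the fits without 1 library, log2 fold changes ran across 0 for Aars (-0.11 to 0.14), Aldh18a1 (-0.39 to 0.0056), Asns (-0.21 to 0.26), Atf3 (-0.36 to 0.029), Cars (-0.21 to 0.0679), Cebpb (-0.88 to 0.025), Cebpg (-0.26 to 0.48), Eif2ak1 (-0.0141 to 0.0217), Eif4ebp1 (-0.21 to 0.0256), Gars (-0.0205 to 0.21), Gpt2 (-0.15 to 0.26), Mthfd2 (-0.0731 to 0.15), Nars (-0.0507 to 0.33), Phgdh (-0.28 to 0.20), Psat1 (-0.32 to 0.0521), Psph (-0.0943 to 0.24), Pycr1 (-0.10 to 0.11), Sars (-0.0795 to 0.0826), Shmt1 (-0.33 to 0.27), Shmt2 (-0.54 to 0.0109), Tars (-0.16 to 0.37), Trib3 (-0.27 to 0.37) and Yars (-0.37 to 0.11). The cause was not tested. Depth limits Chac1, Nupr1 and Vldlr, which rest on counts from 6 to 137 per library. Fixing the free base of the promoter core to C left 9 of 12 genes.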
